A study of Mus musculus with 16 samples.

Results

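The genes described here encode the laminin chains, the integrin subunits and 6 further basement membrane or matrix proteins of the mouse fetal gonad. They were taken by symbol from the array's annotation: every laminin chain (Lama, Lamb, Lamc), every integrin alpha and beta subunit (Itga, Itgb), and Nid1, Nid2, Hspg2, Fn1, Agrn and Dag1, with no collagens. This gave 40 of the 18193 genes that the annotation names, made up of 10 laminin chains, 16 integrin alpha subunits, 8 integrin beta subunits and the 6 others. Symbols that only resemble a subunit name (Itgb1bp1, Itgb1bp2, Itgb2l, Itgb3bp, Itgbl1) were not counted. A gene was read from its probe set of highest mean and was tested if it exceeded the array median in at least 2 arrays, which 28 of the 40 did, among 12332 genes tested in all. The 12 that were not tested were Lamb3, Itga2, Itga7, Itga10, Itgae, Itgam, Itgax, Itgb2, Itgb3, Itgb4, Itgb6 and Itgb7. Their single values lay between 2.58 and 12.8 intensity units, where the array medians lay between 9.32 and 10.5, so nothing is said of their differences. Of the 28, 24 exceeded the median in arrays of both stages. The other 4 passed through 1 stage: Lama3 through 5 arrays and Lamc3 through 4, all of E14.5 and all but 1 of testis, and Itga2b and Itgal through 1 knock-out ovary and 1 knock-out testis array of E12.5 each. A gene that passed only where it is high had to differ, so a call for these 4 supports nothing. Counts for the wild-type testis stages, the stage average and the sex average are also given without them.

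Basement membranes are thin protein sheets beneath epithelia and around vessels, muscle and nerve. Laminins, trimers of one alpha, one beta and one gamma chain, form one network of the sheet, nidogens (Nid1, Nid2) and perlecan (Hspg2) tie it to collagen IV, and cells hold on to it through integrins, which are pairs of an alpha and a beta subunit, and through dystroglycan (Dag1). In the fetal testis, Sertoli cells and the peritubular cells around them lay down a laminin-rich basement membrane that encloses the testis cords, while in the fetal ovary germ cell nests are enclosed more loosely.

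The series holds 16 expression arrays of dissected mouse gonads in 8 groups of 2. The groups were wild-type ovary, Wnt4 knock-out ovary, wild-type testis and Wnt4 knock-out testis, each taken on embryonic days 12.5 and 14.5 (E12.5, E14.5). The labels name biological replicates, but give neither a strain nor the number of gonads in a sample, so p-values measure the spread between these samples. For male samples the source field names a testis but the title an ovary, and the testis was taken. Values are deposited array intensities, and a fold given here is that of intensity + 4, so the change of a dim gene is understated. Since the samples are whole gonads, fewer cells of a type and less RNA per cell cannot be told apart.

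In all 4 pairs of groups the knock-out arrays read below the wild-type arrays for Wnt4, at 231 to 839 against 473 to 1822, and where its probe set lies relative to the deleted part is not given. Xist and 3 Y-linked genes matched the labelled sex, yet 6 arrays also held signal of the other sex. As a percent of the level in arrays of that other sex it was 18.9% and 7.82% in wild-type ovary at E12.5, 18.7% in replicate 2 of E12.5 knock-out ovary, and 20.8%, 22.9% and 16.6% in replicate 2 of wild-type ovary, wild-type testis and knock-out testis at E14.5, against 0.145% to 1.45% in the other 10 arrays. The actin and Gapdh control probe sets gave a 3'/5' signal ratio of 1.76 to 2.27 in 3 E12.5 arrays (wild-type ovary replicate 2, knock-out ovary replicate 1, knock-out testis replicate 1) and 1.06 to 1.36 in the others. The wild-type testis arrays of E12.5 were closer to each other than any other pair, and it was not tested whether they are separate samples. They had an SD of their log2 difference over genes of 0.142 against 0.335 to 0.587.

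**Figure D1:**
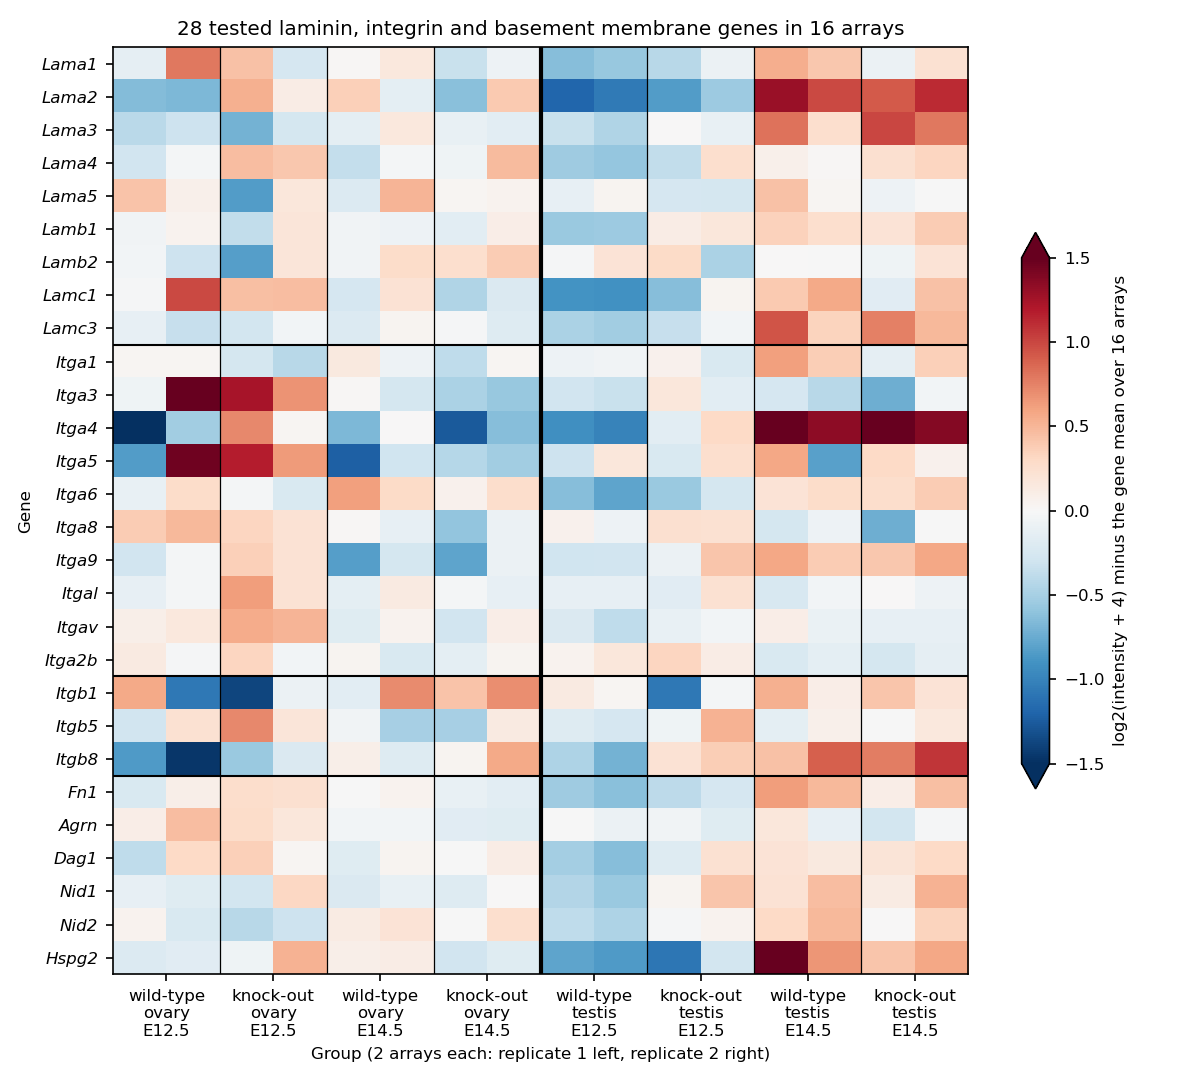
Each row is 1 of the 28 tested members and each column 1 of the 16 arrays, with colour showing log2(intensity + 4) minus the gene's mean over all arrays. Wild-type testis at E12.5 has the lowest group mean for 13 of the 28 members, and wild-type testis at E14.5 the highest for 9. Lamc3, which passed the filter through E14.5 testis arrays, is in both counts. The matching shares over all tested genes were not counted, so the members are not shown to be unusual.

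In the wild-type testis, 14 of the 28 tested members were higher at E14.5 than at E12.5 and none was lower (limma, adjusted p under 0.05). The count was 12 of 24 without the 4 members that passed the filter through 1 stage, and 5 of 28 with the close pair of E12.5 arrays counted as 1 array. The share of all tested genes past the same threshold was 10.6%, and 6.73% were past it and higher. Lama2, Itga4 and Hspg2 rose most, by 4.82-fold, 5.23-fold and 3.79-fold. By family, 6 of 9 tested laminin chains (Lama3 and Lamc3 among them), 2 of 10 integrin alpha subunits, 1 of 3 integrin beta subunits and 5 of the 6 other genes rose. The median log2 change over the 28 members was 0.76, against 0.068 over all tested genes. In all 14 both E14.5 arrays lay above both E12.5 arrays. The 14 were called on these same arrays, so this separation adds no support. The share of all tested genes that separated in this way was not counted.

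Among the laminin alpha chains, Lama2, the alpha chain of the laminin of muscle and peripheral nerve, read 11.1 and 12.5 in the wild-type testis arrays of E12.5 and 80.6 and 64.4 in those of E14.5, a log2 change of 2.27 ± 0.31 (SE) with an adjusted p of 0.000669. Ovaries of both genotypes stayed at 45.8 or below at both stages, and the E12.5 testes of both genotypes at 19.6 or below. The 4 testis arrays of E14.5, at 61.4 to 80.6, lay above every other array for this gene. Lama1, the alpha chain of the first laminin of the embryo, read 166 and 175 at E12.5, then 383 and 346 at E14.5, a log2 change of 1.08 ± 0.30 (SE) (adjusted p = 0.036). Lama3, an alpha chain of epithelial laminins, was dim and read 6.02 and 5.26 and then 18.2 and 11.1, a log2 change of 0.92 ± 0.20 (SE) (adjusted p = 0.0119). Its E12.5 values in all groups lay below the lowest array median of 9.32, and it passed the filter through E14.5 arrays.

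A beta chain and both tested gamma chains also passed, while the beta chain Lamb2 did not. Lamb1, the beta chain shared by many laminins, read 1069 and 1075 at E12.5, then 2001 and 1882 at E14.5, a log2 change of 0.85 ± 0.17 (SE) (adjusted p = 0.00628). Lamc1, the gamma chain of most laminins, read 186 and 184 and then 459 and 518, a log2 change of 1.38 ± 0.32 (SE) (adjusted p = 0.0169). Each of the 3 chains Lama1, Lamb1 and Lamc1, which together form one trimer, was higher at E14.5. Lamc3, a rarer gamma chain, was dim, at 4.93 and 4.65 and then 19.9 and 11.6, a log2 change of 1.13 ± 0.21 (SE) (adjusted p = 0.00412). It passed the filter through the 4 testis arrays of E14.5, where it is high.

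The proteins that join or surround the laminin network were also higher. Hspg2, which encodes perlecan, a large heparan sulfate proteoglycan, read 25.3 and 24.1 at E12.5, then 144 and 76.1 at E14.5, a log2 change of 1.92 ± 0.33 (SE) (adjusted p = 0.00285). The E14.5 arrays lay far apart, and both were above the wild-type ovary arrays of that stage, at 50.2 and 50.8. Nid1 and Nid2, the nidogens, read 1165 and 1069 and then 1837 and 2180, and 555 and 526 and then 892 and 1016. Their log2 changes were 0.84 ± 0.20 (SE) and 0.81 ± 0.17 (SE), with adjusted p of 0.0187 and 0.00841.

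Fn1, which encodes fibronectin, a matrix protein of interstitial spaces bound by several integrins, had the smallest p of all members in this comparison. It read 1285 and 1206 at E12.5, then 2861 and 2609 at E14.5, a log2 change of 1.13 ± 0.15 (SE) (adjusted p = 0.000476). A second Fn1 probe set went the other way, from 334 and 373 to 183 and 103, a log2 change of -1.34, so the direction given for Fn1 is that of the brighter probe set, and the mean of both sets had a log2 change of -0.10. Dag1, which encodes dystroglycan, a laminin and agrin receptor, read 945 and 867 and then 1562 and 1491, a log2 change of 0.75 ± 0.21 (SE) (adjusted p = 0.037). Agrn, which encodes the heparan sulfate proteoglycan agrin, was the one of these 6 that did not pass, at 1511 and 1432 and then 1710 and 1392, with a 95% interval of the log2 change from -0.27 to 0.40.

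Of the integrin subunits, Itga4, which pairs with Itgb1 or Itgb7 and binds fibronectin and Vcam1, rose most. It read 47.5 and 44.7 at E12.5, then 273 and 243 at E14.5, a log2 change of 2.39 ± 0.38 (SE) (adjusted p = 0.002). The 4 testis arrays of E14.5 read 243 to 279, and no other array of the series read above 157. Itga6, a laminin receptor subunit, read 675 and 609 and then 1214 and 1274, a log2 change of 0.95 ± 0.18 (SE) (adjusted p = 0.00471). Itgb8, which pairs with Itgav and activates latent TGF-beta, read 170.5 and 144 and then 324 and 443, a log2 change of 1.25 ± 0.27 (SE) (adjusted p = 0.0118). Itga9, a receptor subunit for tenascin-C, read 612 and 621 and then 1134 and 987 without passing (adjusted p = 0.0641).

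**Figure D2:**
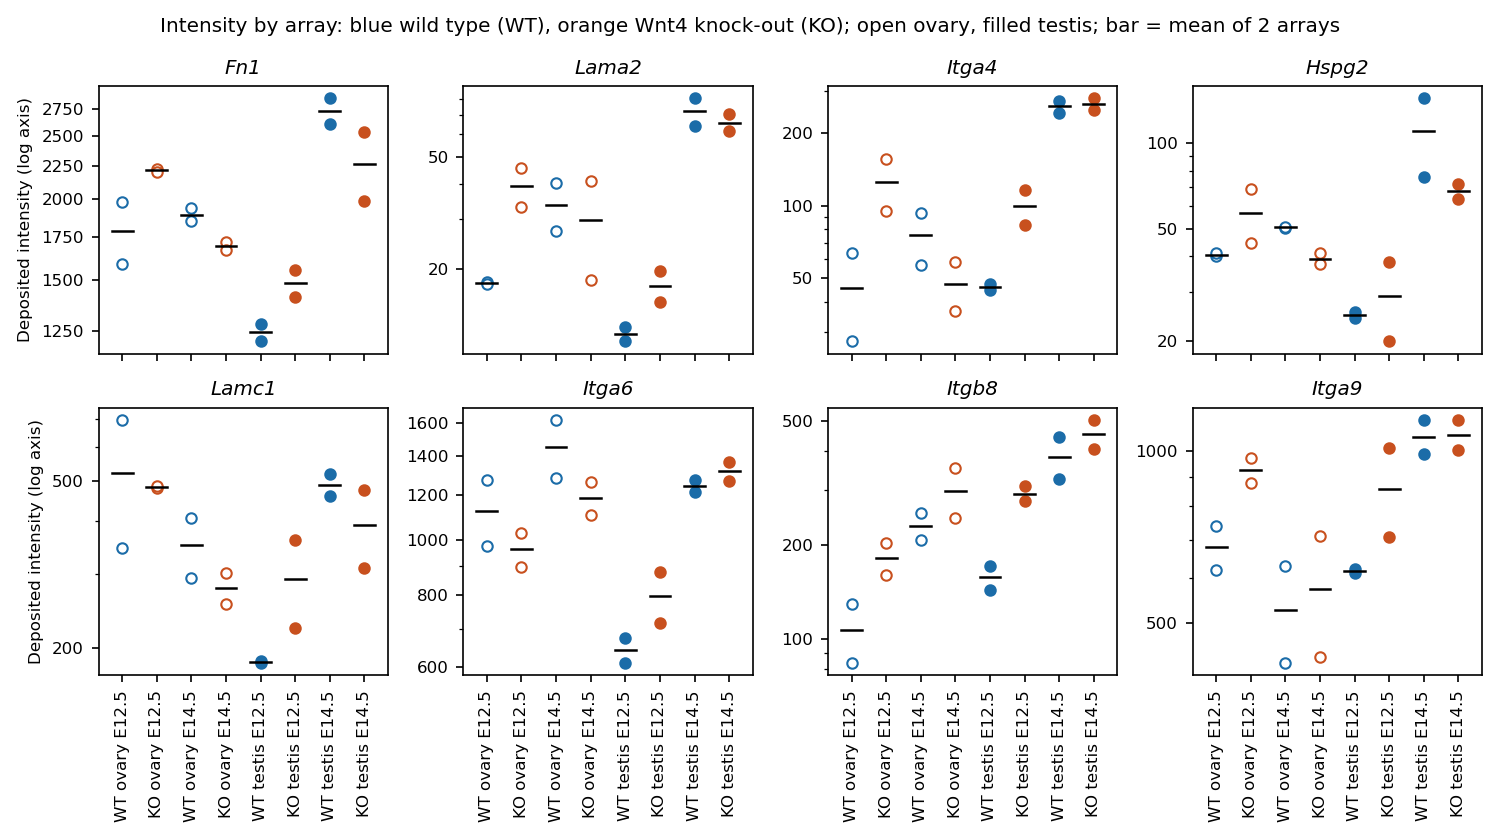
Deposited intensity on a log axis for single members, 1 point per array, wild type in blue and Wnt4 knock-out in orange, ovary open and testis filled, with a bar at the mean of the 2 arrays of a group. For Itga4 and Lama2 the 4 testis arrays of E14.5 lie above every other array, and for Itgb8 the wild-type ovary arrays of E12.5 lie lowest.

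The calls differed in how far they rested on single arrays. Hspg2, Itga4, Lama2 and Fn1 passed in each of the 4 fits that left out 1 array of this comparison, while Dag1, Lama1 and Lamc1 passed in none of them. The count of 14 became 6 and 4 without replicates 1 and 2 of wild-type testis E12.5, and 10 and 8 without replicates 1 and 2 of wild-type testis E14.5. With the close pair of E12.5 arrays averaged into 1 array, 5 members passed (Fn1, Hspg2, Itga4, Lama2, Lamc3), and with the 3 E14.5 arrays that held over 10% signal of the other sex left out, 6 passed (these 5 and Lama3). Of the 14, 9 had at least 1 other probe set past the filter, and in 7 of these all of them moved the same way. The exceptions were Fn1 (above) and Lamb1, where 1 dim set had a log2 change of -0.55 and 2 sets were positive.

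Markers of several cell types moved over the same interval in wild-type testis. All 4 tested fetal Leydig cell markers rose, with a summed intensity of 291 to 357 at E12.5 and 6969 to 9700 at E14.5; Insl3 was not tested. Among 6 tested interstitium and smooth muscle markers 3 rose (sum 7507 to 7912, then 11440 to 12250), and among 7 germ cell markers 4 rose (2177 to 2236, then 7620 to 9793). Sertoli markers were 1 of 9 higher (5939 to 6278, then 6691 to 8131), surface epithelium 1 of 5 higher (1980 to 2057, then 2655 to 2859), and macrophage markers 1 of 12 higher (1288 to 1360, then 1628 to 1768). Endothelial markers were 1 of 11 lower (2313 to 2400, then 1726 to 2228), and megakaryocyte, erythroid, mesonephric and striated muscle lists had 1 lower each, of 3, 5, 4 and 6 tested. The part of these cell types in the members' changes was not tested.

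Promoter windows are given for 4 of the 14 members that rose together, the 3 with the largest changes and Lamb1, for a chain of the common laminin trimers. They are the 250 bases before the annotated start from RefSeq (build GRCm38.p6), 5′ to 3′ on the gene's strand, at chr10:27616943-27617192 (minus strand) for Lama2, chr2:79255176-79255425 (plus) for Itga4, chr4:137468553-137468802 (plus) for Hspg2 and chr12:31265043-31265292 (plus) for Lamb1. Capitals mark matches on either strand to 6 motifs. The TATA box was searched as TATAAA, the CAAT box as CCAAT and the GC box as GGGCGG. The motif of NR5A1 type was searched as AAGGTCA, that of SOX type as AACAAT and that of GATA type as AGATAA.
Lama2: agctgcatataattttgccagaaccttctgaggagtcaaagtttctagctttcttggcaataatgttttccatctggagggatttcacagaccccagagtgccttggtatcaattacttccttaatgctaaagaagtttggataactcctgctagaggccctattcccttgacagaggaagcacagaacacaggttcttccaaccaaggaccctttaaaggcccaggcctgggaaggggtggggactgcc
Itga4: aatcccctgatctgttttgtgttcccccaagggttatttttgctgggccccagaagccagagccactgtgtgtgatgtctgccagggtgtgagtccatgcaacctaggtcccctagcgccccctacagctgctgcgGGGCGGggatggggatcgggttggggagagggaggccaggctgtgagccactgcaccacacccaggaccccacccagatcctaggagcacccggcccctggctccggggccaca
Hspg2: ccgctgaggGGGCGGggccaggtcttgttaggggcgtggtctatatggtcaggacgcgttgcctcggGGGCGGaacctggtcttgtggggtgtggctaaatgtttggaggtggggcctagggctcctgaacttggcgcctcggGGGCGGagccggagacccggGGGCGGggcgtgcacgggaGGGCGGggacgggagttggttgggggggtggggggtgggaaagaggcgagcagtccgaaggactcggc
Lamb1: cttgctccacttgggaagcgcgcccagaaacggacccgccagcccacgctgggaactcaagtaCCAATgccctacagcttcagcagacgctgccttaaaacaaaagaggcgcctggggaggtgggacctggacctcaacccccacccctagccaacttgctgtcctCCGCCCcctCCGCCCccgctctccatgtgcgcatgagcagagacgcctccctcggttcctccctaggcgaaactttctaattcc
Hspg2 holds 5 GC boxes, Lamb1 holds 2 and a CAAT box, Itga4 holds 1, and Lama2 holds none of the 6 motifs. Of 32851 windows of the same length over all genes, 32.7% hold the GC box, 33.8% the CAAT box, 12.4% the TATA box, 9.99% the GATA type, 9.42% the SOX type and 4.08% the NR5A1 type. No match overlapped another in the 4 windows. The GC content was 70.0% for Hspg2, 64.0% for Itga4, 62.0% for Lamb1 and 47.2% for Lama2, where the quartiles over all windows were 45.2% and 61.2%. A match is a run of letters and says nothing of binding, and the table held a window for 7 of the 14 genes.

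In the wild-type ovary the same interval brought 1 change among the members, a rise of Itgb8, against 4.36% of all tested genes called and 2.51% called higher. Itgb8 read 129.6 and 83.4 at E12.5, then 253 and 207 at E14.5, a log2 change of 1.11 ± 0.27 (SE) or 2.15-fold (limma adjusted p = 0.0362). The rise was close to the 1.25 of the testis. It lost the call without E12.5 replicate 2 (log2 change 0.80, adjusted p = 0.265) and without either E14.5 replicate (adjusted p of 0.23 and 0.0502). It was also lost without the E12.5 arrays of high 3'/5' ratio and without the E14.5 arrays with signal of the other sex. Without E12.5 replicate 1, which leaves the array of high ratio, the count of members called was 3. The median log2 change of the 28 members was -0.021, and -0.044 over all tested genes.

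Apart from Itgb8, the 13 other members that rose in the testis did not pass in the ovary. Their ovary arrays overlapped between the stages for 7, were all higher at E14.5 for 5 (Lama2, Hspg2, Itga6, Nid2, Lama3) and all lower for Lamb1. The matching shares over all tested genes were not counted. Fn1 read 1587 and 1977 at E12.5, then 1849 and 1935 at E14.5, Lamb1 1521 and 1636 and then 1517 and 1490, and Lamc1 345 and 697 and then 293 and 408. Lama2 read 17.98 and 17.7 and then 40.2 and 27.2, with both later arrays higher, but its adjusted p was 0.207. Itga4 read 27.4 and 63.9 and then 57.1 and 93.7, and its arrays overlapped. Dag1 read 1037 and 1662 and then 1195 and 1386, and Nid1 1450 and 1392 and then 1360 and 1459. The arrays of the stages overlapped for both.

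**Figure D3:**
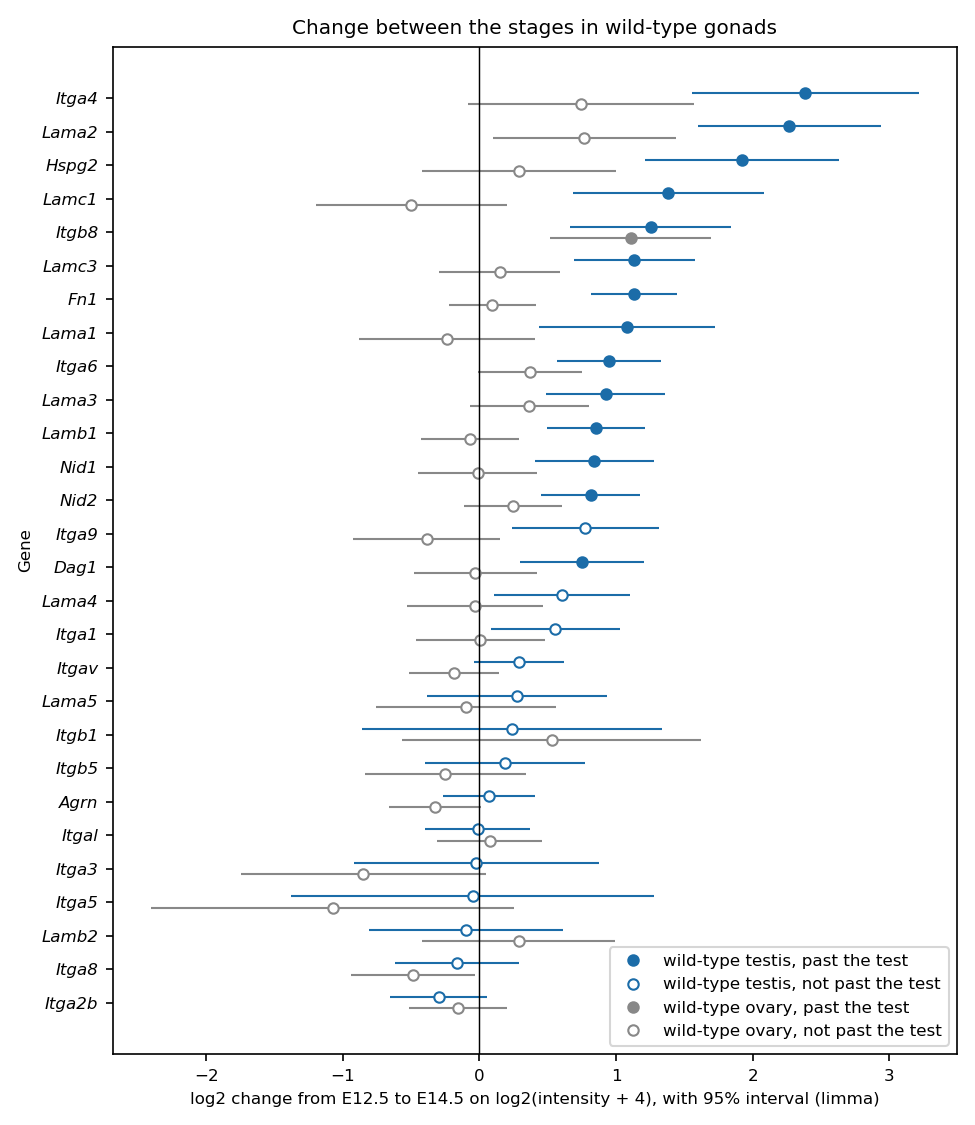
Log2 change from E12.5 to E14.5 with its 95% limma interval for each tested member, in wild-type testis and in wild-type ovary, filled where the adjusted p passed. The 14 filled testis points run from 0.75 (Dag1) to 2.39 (Itga4), and Itgb8 is the one filled ovary point.

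The test of the difference itself, the stage change of testis minus that of ovary, called no member (limma; 0.154% of all tested genes). At an unadjusted p under 0.05 there were 14 members, all with the larger change in testis, where 11.4% of all genes did so. Lamc3, which passed the filter through E14.5 testis arrays, was among the 14. Fn1 came closest, with a difference of 1.04 ± 0.21 (SE) and an adjusted p of 0.0669, followed by Lamc1 (1.88 ± 0.46 (SE), adjusted p = 0.0999) and Lamb1 (0.92 ± 0.24 (SE), adjusted p = 0.112). Hspg2, Lama2 and Lamc3 had differences of 1.63, 1.503 and 0.98, with adjusted p of 0.129, 0.135 and 0.138. The testis changes are thus not shown to differ from the ovary changes at this threshold. The count was 6 without wild-type ovary E12.5 replicate 1, which leaves the array of high ratio, and 3 without wild-type ovary E14.5 replicate 2. With the 3 E14.5 arrays that held over 10% signal of the other sex left out, 2 members passed, Fn1 and Lamc3.

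The knock-out gonads cover the same interval in other arrays, described here without a test. From E12.5 to E14.5 in knock-out testis all 14 members that rose in wild-type testis had a positive log2 change, from 0.093 for Nid1 to 1.71 for Lama2, with a median of 0.61. Of the 28 tested members 21 had a positive change there, and the share over all tested genes was not counted. Itga4 read 83.7 and 116 and then 279 and 249, Lama2 15.3 and 19.6 and then 61.4 and 70.6, and Hspg2 20.01 and 38.03 and then 63.8 and 71.9. Each of these 3 genes had both later arrays above both earlier ones. Lama3 read 8.74 and 7.77 and then 21.4 and 17.9, Lamc3 5.72 and 8.06 and then 16.9 and 13.4, and Itga6 716 and 879.7 and then 1269 and 1371. These also did not overlap between the stages. In all, the later arrays lay above the earlier ones for 10 of the 14, and the stages overlapped for Lamc1, Nid1, Nid2 and Dag1. Lama3 and Lamc3 are among the 10 and passed the filter through E14.5 arrays, those of knock-out testis included. Their separation and their positive changes therefore support nothing, and the median of 0.61 includes them. The share of all tested genes that separated in this way was not counted. In knock-out ovary 6 of the 14 had a positive change, and Itga4 went from 157 and 95.1 to 36.8 and 58.5, the reverse of its direction in both testes.

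Testis and ovary of wild-type animals were next compared at each stage. At E12.5 no member passed, against 0.608% of all tested genes (limma). At an unadjusted p under 0.05 there were 8 members, all lower in testis, where 12.2% of all genes were. The median log2 difference, testis minus ovary, was -0.34 over the 28 members and -0.11 over all tested genes.

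Itga6 was closest to the threshold, with 975 and 1274 in ovary and 675 and 609 in testis, a difference of -0.79 ± 0.18 (SE) and an adjusted p of 0.0664. Lamc1 read 345 and 697 in ovary and 186 and 184 in testis, a difference of -1.39 ± 0.32 (SE) (adjusted p = 0.0753). In ovary, replicate 2 was the higher array for both. The others were Fn1, Lamb1, Lama1, Itgav, Dag1 and Itga3, with adjusted p from 0.15 to 0.247. For Itga3, a laminin receptor subunit, ovary read 76.1 and 234 and testis 64.3 and 62.3, so the ovary arrays differed more from each other than replicate 1 did from testis. Ovary replicate 2 is an array of high 3'/5' ratio. It held 7.82% signal of the other sex, against 18.9% in replicate 1, so the ovary arrays differ in both respects. With the 3 arrays of high ratio left out the difference was -0.25 for Itga3, -0.20 for Dag1, -0.48 for Lama1 and -0.89 for Lamc1, and no member passed. In the full set those of Itga3, Dag1 and Lama1 were -1.04, -0.53 and -0.94. Without ovary replicate 1, so that the array of high ratio stood alone, the count of members called was 6, and with the replicate number as a block it was 1 (Lamc1). The parts of the ratio and of the signal of the other sex were not tested.

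At E14.5, Itga4 and Itga9 were higher in testis than in ovary (2 of 28 members, against 3.84% of all tested genes called and 2.26% called higher). Itga4 read 57.1 and 93.7 in ovary and 273 and 243 in testis, a difference of 1.76 ± 0.38 (SE) or 3.38-fold (adjusted p = 0.0211). Itga9 read 425 and 630 in ovary and 1134 and 987 in testis, a difference of 1.03 ± 0.25 (SE) or 2.04-fold (adjusted p = 0.0365). For both genes every testis array lay above every ovary array, and the share of all tested genes that did so was not counted. The ovary replicate with 20.8% signal of the other sex was the higher one in both.

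A further 8 members were higher in testis at an unadjusted p under 0.05, so that 10 of 28 were, where 7.96% of all genes were. They were Fn1, Lamc3, Lama2, Hspg2, Itgb8, Lama3, Nid1 and Lamb1, with adjusted p from 0.065 to 0.302. Of these, Lama3 and Lamc3 passed the filter through E14.5 arrays, all but 1 of testis, so their place among the 10 supports nothing. Fn1 read 1849 and 1935 in ovary and 2861 and 2609 in testis. Lama3 read 7.45 and 10.1 against 18.2 and 11.1, and Lamc3 6.78 and 8.77 against 19.9 and 11.6. The arrays of the sexes did not overlap for these 3, and the difference was smaller than for Itga4. Both calls were lost without wild-type ovary E14.5 replicate 1, without either wild-type testis replicate of E14.5, with only these groups fitted, and with the 3 E14.5 arrays that held over 10% signal of the other sex left out. In that last fit the differences were 2.18 for Itga4 (adjusted p = 0.0706) and 1.41 for Itga9 (adjusted p = 0.0552), and Lamc3 was called instead. Itga9 alone was lost when the close testis pair of E12.5 was averaged.

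Over both stages and genotypes together, 4 members were higher in testis and none was lower (11.2% of all tested genes called, 5.29% higher). Itga4 differed by 1.00 ± 0.19 (SE) (adjusted p = 0.00481), Itgb8 by 0.65 ± 0.14 (SE) (adjusted p = 0.00827), Lama3 by 0.49 ± 0.10 (SE) (adjusted p = 0.00708) and Itga9 by 0.42 ± 0.12 (SE) (adjusted p = 0.0438). In knock-out gonads the difference at E12.5 was -0.30 for Itga4 and -0.13 for Itga9, and at E14.5 it was 2.41 and 0.94. The wild-type arrays of these genes overlapped between the sexes at E12.5. For Itgb8 and Lama3 the knock-out difference was positive at both stages. Lama3 is among the 4 that passed the filter through 1 stage, and without those 4 the count was 3 higher of 24. The Itga9 call held in 3 of 16 fits that left out 1 array (knock-out testis E12.5 replicate 1, wild-type ovary E14.5 replicate 2 or knock-out ovary E14.5 replicate 2), and was lost with the close pair averaged and without the E14.5 arrays with signal of the other sex. The latter fit also lost Itgb8. Lowest to highest, Itgb8 ran from 83.4 to 352 in the 8 ovary arrays and from 144 to 503 in the 8 testis arrays, so the sexes overlapped. Markers also differed by sex: 4 of 9 Sertoli markers and 2 of 4 fetal Leydig markers were higher in testis at E14.5, and 7 of 9 pre-granulosa markers were lower. Interstitium markers were 1 of 6 higher. Their part in the members' differences was not tested.

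Averaged over sex and genotype, 14 members changed between the stages, 11 higher and 3 lower at E14.5 (26.5% of all tested genes called, 13.0% higher and 13.5% lower). Lama2, Itgb8, Itga6, Lama3, Lamc3, Nid2, Fn1, Hspg2, Itga4, Lamb1 and Itgb1 were higher, by 1.19-fold for Lamb1 to 2.11-fold for Lama2. In knock-out ovary alone, not tested, the log2 change was negative for Itga4 (-1.32), Hspg2 (-0.46), Lama2 (-0.44) and Fn1 (-0.39). It was positive there for the others listed. Without the 4 members that passed the filter through 1 stage there were 9 higher and 2 lower of 24. Of the fits that left out 1 array, the Lamb1 call held in 2 of 16 (without knock-out ovary E12.5 replicate 2 or knock-out ovary E14.5 replicate 1) and the Itga3 call in 8. Read as the mean of both probe sets, Fn1 had a stage average of 0.17 (adjusted p = 0.527). Itga8, the nephronectin receptor subunit that takes part in kidney budding, was lower, with a log2 change of -0.47 (adjusted p = 0.00565). It read 2528 and 2710 in wild-type ovary at E12.5, then 1964 and 1774 at E14.5, and 2024 and 1838 and then 1611 and 1841 in wild-type testis. Read as the mean over its probe sets, Itga8 had a log2 change of the opposite sign, 0.065.

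Itga3 was lower, with a log2 change of -0.69 (adjusted p = 0.0272), with 192 and 129 in knock-out ovary at E12.5, then 55.95 and 52.2 at E14.5. In wild-type testis it read 64.3 and 62.3 and then 66.2 and 58.5. Its wild-type testis arrays overlapped between the stages and its knock-out ovary arrays did not. Itga2b, the platelet integrin subunit, was dim throughout, at 6.18 to 11.3, and lower at E14.5 by a log2 change of -0.27 (adjusted p = 0.0306). It passed the filter through 2 E12.5 arrays, its E14.5 values all lay below the lowest array median, and the call held in 8 of 16 fits that left out 1 array. The summed intensity of 3 tested megakaryocyte markers was 177 to 356 over the E12.5 arrays and 71.4 to 181 over the E14.5 arrays, and its part was not tested.

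**Figure D4:**
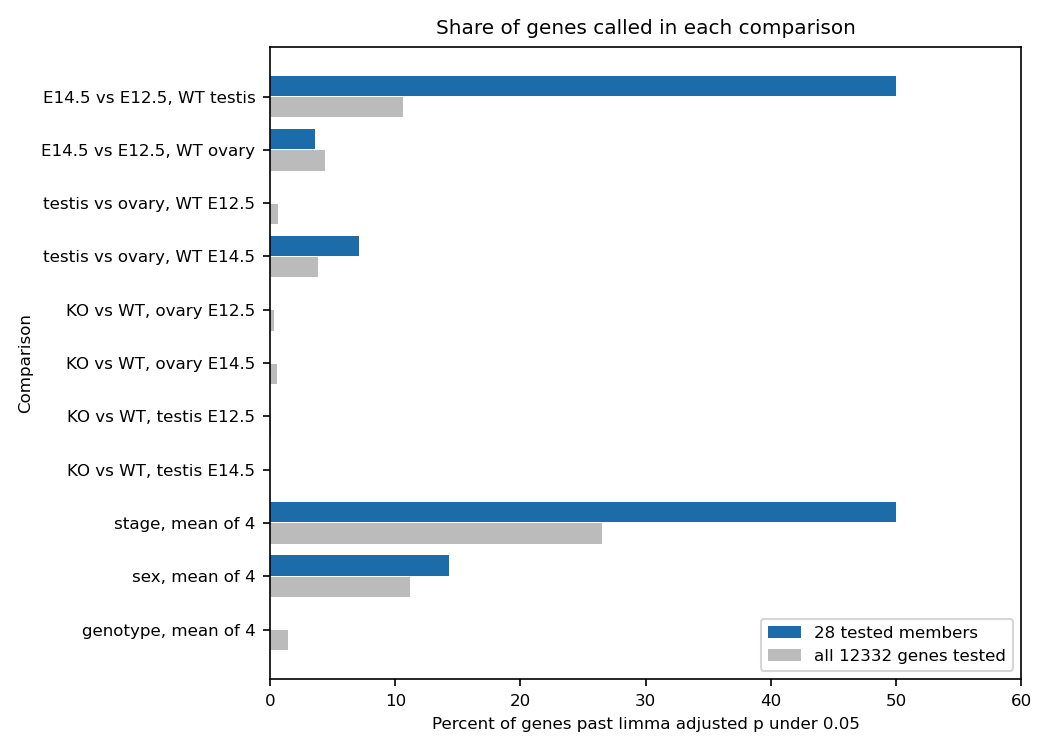
Percent of genes past a limma adjusted p of 0.05 in each comparison, for the 28 tested members and for all 12332 tested genes. The members' bar is 50% for the stages in wild-type testis and also for the stage average, against 10.6% and 26.5% of all genes, and the bars of the Wnt4 comparisons are at 0 for the members.

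Itgb1, the partner of most alpha subunits named here, passed in the stage average at 0.73 (adjusted p = 0.049), and its values followed the 3'/5' ratio of the arrays. Within wild-type ovary at E12.5 it read 1512 in replicate 1 and 481 in replicate 2, the array with the higher ratio. The 3 E12.5 arrays of high ratio read 391 to 484, and the other 5 read 961 to 1512. Without those 3 arrays the stage difference was 0.23 with an adjusted p of 0.311, and it was 0.16 (adjusted p = 0.522) with the ratio as a covariate. Itgb1 passed in no comparison within one sex and genotype.

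Other members held such probe sets too, although mostly not the one used. Of 59 probe sets of the members past the filter, 10 were at least 2-fold lower in the 3 E12.5 arrays of high ratio than in the other 5, and in 9 of these the arrays did not overlap. The share over all probe sets past the filter was not counted, so the members are not shown to differ from the array as a whole. Only the Itgb1 set among them was used for a gene. A set of Itgav that was not used read 8.01 to 13.7 against 36.4 to 172, and one of Nid1 read 50.8 to 127 against 223 to 544. The set used for Itga3 was the one that was at least 2-fold higher in those arrays. Without them its stage average was -0.38 (adjusted p = 0.103), and that of Itga8 was -0.44 (adjusted p = 0.0501).

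**Figure D5:**
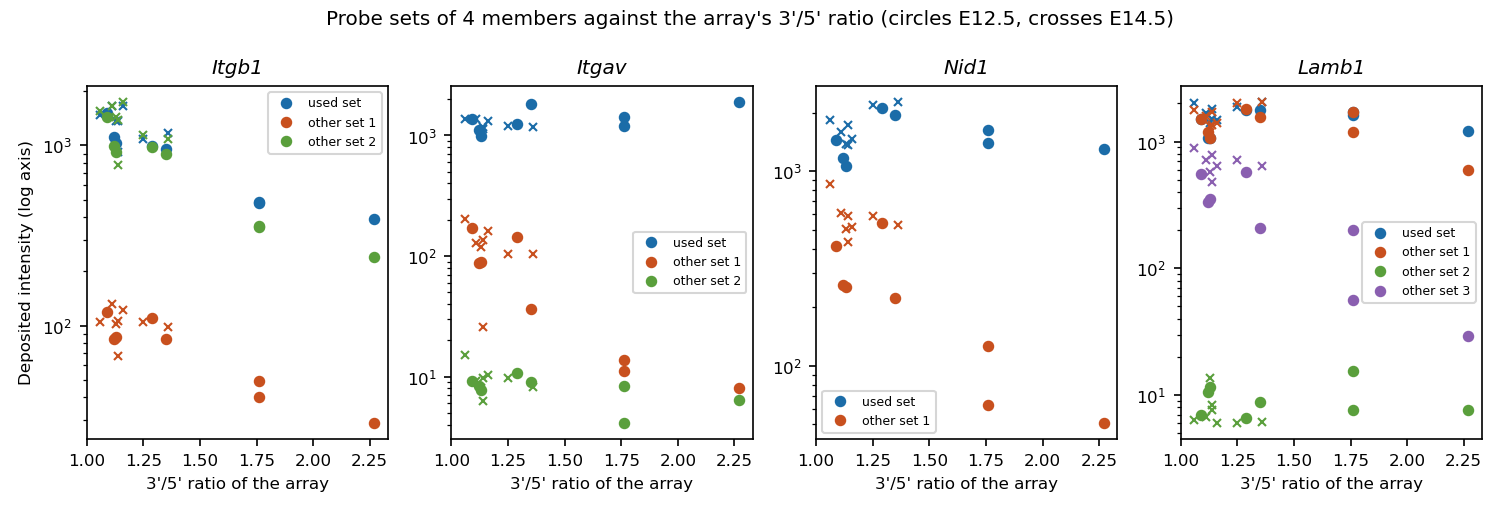
Deposited intensity (log axis) of each probe set of 4 members against the 3'/5' ratio of the array, circles for E12.5 and crosses for E14.5, the set used for the gene marked as such. The 3 E12.5 arrays with ratios of 1.76 to 2.27 read lowest for Itgb1, at 391 to 484 in the set used.

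Loss of Wnt4, the secreted ligand needed for ovarian development, called no member in any of the 4 comparisons of knock-out with wild type (limma). The shares of all tested genes called were 0.292% in ovary and 0.0405% in testis at E12.5, and 0.543% in ovary and 0.00811% in testis at E14.5. At an unadjusted p under 0.05 there were 7 members higher and 0 lower in ovary at E12.5, and 6 higher and 0 lower in testis at E12.5. The shares of all genes higher at that level were 4.94% and 8.55%. At E14.5 there were 0 in either sex, where 5.74% of all genes were in ovary and 1.48% in testis. Itgal was among the 7 in ovary at E12.5. It passed the filter through 1 knock-out ovary and 1 knock-out testis array of that stage. Its place among the 7 therefore supports nothing.

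In ovary at E12.5, Itga4 had the smallest p, with 27.4 and 63.9 in wild type and 157 and 95.1 in knock-out, a log2 difference of 1.45 ± 0.38 (SE) (unadjusted p = 0.00224, adjusted p = 0.183). Lama2 read 17.98 and 17.7 in wild type and 45.8 and 33.3 in knock-out, a difference of 0.98 ± 0.31 (SE) (adjusted p = 0.325). For both genes the knock-out arrays lay above the wild-type arrays, and the share of all tested genes that did so was not counted. Itgb8, Itgal, Itgav, Lama4 and Fn1 followed, with adjusted p from 0.43 to 0.614. Lama4, an alpha chain of vessel laminins, read 359 and 428 and 606 and 580.1, and Itgav, a subunit that binds vitronectin and fibronectin, 1371 and 1430 and 1892 and 1829. Itgal, a leukocyte subunit, was dim at 6.72 and 7.43 and 14.03 and 9.59. It passed the filter through 2 knock-out arrays of E12.5.

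Marker lists differed between these ovary groups. Pre-granulosa markers summed to 1997 to 2690 in wild-type and 689.5 to 848 in knock-out ovary at E12.5, with 3 of 9 lower. Striated muscle markers summed to 99.8 to 143 in wild-type and 506 to 1265 in knock-out ovary at E12.5, with 2 of 6 higher, and fetal Leydig markers to 146 to 147 and 584 to 1085, with 0 of 4 passing. Macrophage markers summed to 1498 to 1982 and 1895 to 3108, and endothelial markers to 2698 to 2809 and 3089 to 3415, with none passing. Their part in the members' values was not tested.

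In testis at E12.5 the members with the smallest p were Lamb1 and Nid1. Lamb1 read 1069 and 1075 in wild type and 1705 and 1775 in knock-out, a difference of 0.70 ± 0.17 (SE) (adjusted p = 0.138). Nid1 read 1165 and 1069 and 1629 and 2103, a difference of 0.73 ± 0.20 (SE) (adjusted p = 0.201). The arrays of the genotypes did not overlap for either gene, and the wild-type pair is the close pair described above. The arrays also did not overlap for other members, such as Fn1, Itga6 and Lama2, and the share of all tested genes was not counted. Over the settings other than leaving out 1 array, the differences ran from 0.32 to 0.81 for Lamb1 and from 0.14 to 0.91 for Nid1. Itgb8, Dag1, Itga4 and Nid2 followed, with adjusted p from 0.251 to 0.347. Itgb8 read 170.5 and 144 in wild type and 275 and 308 in knock-out, and Dag1 945 and 867 and 1179 and 1579. With the 3 arrays of high ratio left out, Dag1 passed. Germ cell markers summed to 2177 to 2236 in wild-type and 4332 to 4640 in knock-out testis at E12.5, and mesonephric markers to 287 to 305 and 571 to 609, with none of either list passing, and their part was not tested.

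At E14.5 the genotypes lay closer. Fn1 read 2861 and 2609 in wild-type and 1984 and 2537 in knock-out testis, a difference of -0.28 ± 0.15 (SE) (adjusted p = 1), and 1849 and 1935 and 1717 and 1670 in ovary. Hspg2 read 144 and 76.1 in wild-type and 63.8 and 71.9 in knock-out testis, and 50.2 and 50.8 and 37.5 and 40.95 in ovary. In both genes and both sexes the knock-out arrays lay below the wild-type arrays, with no adjusted p passing. For Fn1 this holds for the brighter probe set, and its second set had a difference of the opposite sign in both sexes. The share of all tested genes that separated in this way was not counted. Itga4, which set E14.5 testis apart from ovary, read 36.8 and 58.5 in knock-out ovary and 279 and 249 in knock-out testis. Its 95% intervals for knock-out against wild type at E14.5 were -1.44 to 0.21 in ovary and -0.79 to 0.86 in testis on the log2 scale.

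Averaged over sex and stage, no member passed for genotype (1.43% of all tested genes called). Itgb8 came closest, higher in knock-out by 0.56 ± 0.14 (SE) or 1.48-fold (adjusted p = 0.0688), then Lama4 by 0.43 ± 0.12 (SE) (adjusted p = 0.111). In ovary at E14.5 Itgb8 read 253 and 207 in wild type and 244 and 352 in knock-out, and in testis 324 and 443 and 405 and 503, with overlapping arrays in both. In all, 6 members had an unadjusted p under 0.05, where 10.2% of all genes did: Itgb8, Lama4, Itga4, Dag1 and Nid1 higher and Itga1 lower. The count called was 1 without wild-type ovary E12.5 replicate 1 or knock-out testis E12.5 replicate 1.

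The effect of genotype was also compared between the sexes. No member passed at E12.5 (0.114% of all tested genes) or at E14.5, where no gene of the 12332 did (limma). At an unadjusted p under 0.05 there were 2 members at E12.5, Lamb1 and Nid2, and 0 at E14.5, where 6.06% and 2.39% of all genes were. For Lamb1 the knock-out difference in testis exceeded that in ovary by 0.79 ± 0.24 (SE) (adjusted p = 0.468), with 1521 and 1636 in wild-type and 1224 and 1793 in knock-out ovary. For Nid2 it was 0.72 ± 0.24 (SE) (adjusted p = 0.535). The test of any difference among the 8 groups called 13 members, against 19.4% of all tested genes, with Itga4 (adjusted p = 0.000852), Lama2 (0.000973) and Itgb8 (0.00139) first. Lama3 and Lamc3, which passed the filter through E14.5 arrays, were among the 13.

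The remaining members passed in no comparison between 2 sets of groups, and Itgav passed only the test of any difference among the 8 groups. Itgb5, a partner of Itgav, ranged from 684 to 1598 over the 16 arrays and Itga5, the fibronectin receptor subunit, from 29.1 to 209, with the 2 wild-type ovary arrays of E12.5 at 39.1 and 209. The pair spans nearly the whole range of Itga5. Lamb2, a beta chain of kidney and synapse laminins, ranged from 84.0 to 199.5, Lama5, an alpha chain of many adult basement membranes, from 8.15 to 26.9, and Itga1, a collagen and laminin receptor subunit, from 13.0 to 30.7. Agrn ranged from 1256 to 2100. Lama4 read 302 and 293 and then 462 and 446 over the stages in wild-type testis (adjusted p = 0.114), and Itgav 1109 and 989.8 and then 1372 and 1196 (adjusted p = 0.247).

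The other genes of these pathways were read as 3 lists. Of 26 tested adaptors and kinases of adhesion complexes (of 30 listed), 5 rose and 1 fell over the stages in wild-type testis, where 10.6% of all genes were called. Vcl (vinculin) rose 1.89-fold, Tln2 (a talin) 1.81-fold and Fermt2 (a kindlin) 1.46-fold, and Tes (testin) fell 2.69-fold. Ptk2b, a focal adhesion kinase relative, was 4.05-fold higher in wild-type testis than ovary at E14.5, the 1 call of that list there (3.85% of it, against 3.84% of all tested genes). None passed for Wnt4 in any of the 4 comparisons.

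Of 16 tested genes of the dystroglycan complex and its glycosylation (of 23 listed), Sspn (sarcospan) rose 2.03-fold over the stages in wild-type testis, and Dtna (a dystrobrevin) was 5.76-fold higher in testis than ovary at E14.5. No other member of the list was called in those comparisons, so the share was 6.25% in each, against 10.6% and 3.84% of all tested genes. Of 30 tested other matrix proteins and integrin ligands (of 36 listed), 3 rose and 1 fell in wild-type testis (13.3%, against 10.6% of all tested genes): Thbs2 (thrombospondin) 3.33-fold, Frem2 3.19-fold and Hmcn1 2.02-fold higher, and Egfl7 1.99-fold lower. In wild-type ovary Thbs2 rose 5.02-fold, and Ltbp1 and Vcam1, the latter a ligand of the Itga4 integrins, fell 1.78-fold and 2.14-fold. That made 10% of the list, against 4.36% of all tested genes. Frem2, which lies in epithelial basement membranes, was 3.69-fold lower in testis than ovary at E12.5. Madcam1, the ligand of the Itga4 and Itgb7 pair, was 2.52-fold higher in knock-out than wild-type ovary at E12.5 (limma adjusted p = 0.0296), while Itgb7 itself was not tested. Each was the 1 call of the list in its comparison (3.33% of the list, against 0.608% and 0.292% of all tested genes). Over sex and stage, Tnc, which encodes the Itga9 ligand tenascin-C, and Madcam1 were higher in knock-out, and Frem1 and Egfl6 lower (13.3% of the list, against 1.43% of all tested genes).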

How the data were processed

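RNA of 16 gonad samples was measured on a 3' expression array with 45101 probe sets. The authors deposited linear signal intensities, made with MAS5 per the submitters' processing notes; array means lay between 272 and 288, and no further normalization was applied. Intensities were read as log2(intensity + 4). A filter on dim signal left 25596 probe sets, those brighter than their array's median on 2 or more arrays. Symbols came from the platform annotation, updated through Entrez identifiers for 34741 of 34945 probe sets with 1 symbol; 932 with several and 9160 with none were not named. One probe set of highest mean stood for each gene.

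Each gene was fitted with limma 3.58.1 (R 4.3.3) with a mean per group over all 16 arrays and an intensity trend (eBayes, 8 residual degrees of freedom), tested two-sided, and adjusted by Benjamini-Hochberg over 12332 genes at a threshold of 0.05. The fit was tested on simulated data. With 2 arrays per group, their number limits the precision. Groups came from the labels. Named with values were members past the threshold or among the 8 smallest p of a comparison, the chains and receptors of the common laminins, and up to 4 genes per pathway list. The members and lists were chosen with earlier results of these data known. Alternatives are given in the closing section.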

Additional observations from a re-analysis of the deposited data

Results flagged for a closer look

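For 4 members the knock-out difference changed sign between the stages, with every knock-out array on one side of the wild-type arrays at E12.5 and on the other at E14.5. Whether the stages differ was not tested. The share of all tested genes with such a change of side was not counted, so the 4 members are not shown to be unusual. Fn1, the fibronectin gene, had a log2 difference, knock-out minus wild type, of 0.32 at E12.5 and -0.16 at E14.5 in ovary, and of 0.25 and -0.28 in testis. Hspg2, the perlecan gene, had 0.42 and -0.34 in ovary. Lama1 had 0.35 and -0.40 in testis, and Itgav 0.22 and -0.12 in testis. None of these differences passed at either stage. The second Fn1 probe set had -0.23 and 0.96 in ovary and -1.51 and 0.091 in testis. The testis comparisons at E12.5 use the close pair of wild-type arrays.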

How the results depend on the processing

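Pseudocount, filters, quantile normalization, probe set choice, trend, groups fitted, the replicate number as a block and leaving out each array were set beforehand; averaging the close wild-type testis pair of E12.5, leaving out or adjusting for arrays of high 3'/5' ratio, leaving out the 3 E14.5 arrays with signal of the other sex, and crossed pairing were chosen after seeing the data. Of 1928 named member values under these alternatives, 1709 kept direction and side of the threshold, 163 lost it, 44 gained it and 12 reversed. All 12 reversals came from reading a gene as the mean of its probe sets: Fn1 in testis against ovary at E12.5 (0.60), in the wild-type testis stages (-0.10) and in the sex by stage difference (-0.11); Itgav in testis against ovary at E12.5 (0.11) and on average (0.20) and in knock-out ovary at E12.5 (-0.31); Lamb1 in testis against ovary at E12.5 (0.13); Itga8 over the ovary stages (0.13) and the stage average (0.065); Lama4 in knock-out ovary at E12.5 (-0.092); Agrn in the stage average (0.098); and Nid1 in the genotype average (-0.086). A pseudocount of 16 lowered the testis stage change of Lama2 to 1.67, of Lamc3 to 0.60 and of Lama3 to 0.49, with the calls kept. The cause was not tested.

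Counts of members called moved by over 1.5 times as follows. Wild-type testis stages, 14: 5 with the pair averaged, 6 without the arrays with signal of the other sex, 4 to 10 leaving out 1 array. Wild-type ovary stages, 1: 0 with the pair averaged, with only the groups compared, without either set of doubted arrays and with the ratio as a covariate, 0 to 3 leaving out 1 array. Stage average, 14: 9 without the arrays with signal of the other sex, 8 with the ratio as covariate, 10 to 15 leaving out 1 array. Testis against ovary at E12.5, 0: 1 with the replicate block, 0 to 6 leaving out 1 array. At E14.5, 2: 1 without the trend or with the pair averaged (Itga4), 1 other gene (Lamc3) without the arrays with signal of the other sex, 0 with only the groups compared, 0 to 2 leaving out 1 array. Sex average, 4: 3 to 6 leaving out 1 array. Knock-out ovary at E12.5, 0: 1 with crossed pairing. Knock-out testis at E12.5, 0: 1 without the high-ratio arrays. Genotype average, 0: 1 without those arrays or with the covariate, 0 to 1 leaving out 1 array. Sex by stage, 0: 2 without the arrays with signal of the other sex, 0 to 6 leaving out 1 array. Genotype by sex at E12.5, 0: 0 to 1 leaving out 1 array. Any difference among groups, 13: 8 with probe sets averaged or with the pair averaged, 8 to 17 leaving out 1 array. Fits without arrays also rest on fewer arrays. Leaving out 1 array left a group with 1, whose spread is assumed to equal that of the other groups.

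Same-numbered replicates deviated together in knock-out against wild-type testis at E14.5 (correlation 0.581), where both replicates 2 held signal of the other sex. They did not in the other 7 comparisons (-0.656 to 0.0833). Replicates also differed in 3'/5' ratio and signal of the other sex, so these correlations cannot decide whether the numbers pair the samples. The labels do not say. With the replicate block the wild-type testis stages gave 15.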

Other observations

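The pathway lists held further differences that were not part of the comparisons above. Averaged over sex and genotype, Thbs2 was 4.09-fold higher at E14.5 than at E12.5 and Cd9, a tetraspanin of integrin complexes, 2.02-fold higher, while Tes was 2.24-fold and Vcam1 1.80-fold lower (limma adjusted p from 2.52e-06 to 0.00283). Of the 30 tested matrix genes 7 were higher and 8 lower between the stages, where 26.5% of all genes were called. Averaged over stage and genotype, Ptk2b was 3.62-fold, Dtna 3.80-fold and Tinagl1, a basement membrane glycoprotein gene, 3.65-fold higher in testis. Parvb, an adaptor at integrin tails, was 2.41-fold lower in testis. In this comparison the adhesion list had 1 higher and 3 lower of 26 tested. The dystroglycan list had 1 higher and 1 lower of 16, and the matrix list 3 higher and 5 lower of 30. These are 15.4%, 12.5% and 26.7% of the lists, against 11.2% of all tested genes.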
